A study of Mus musculus with 12 samples.

Results

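The genes described here are 9 mouse genes: Yap1, Wwtr1, Tead1, Lats1, Lats2, Amotl1 and Amotl2 of the Hippo pathway, the phosphatase gene Ptpn14 and the receptor gene Tnfrsf12a. They were taken by gene symbol from a table of 52962 gene identifiers, and all 9 were among the 15598 genes that passed the filter on low counts. Ptpn14 and Tnfrsf12a were selected on the difference between 8-week and 4-week β-cells in an earlier look at the same samples. Which values chose the other 7 genes is not known, so that comparison is given without a test for all 9, and tests of the 7 between fractions use the same β samples. For Ptpn14 and Tnfrsf12a the comparisons between fractions are also a description with no test. RNA was sequenced from islet cells of NOD mice, which become diabetic through autoimmunity, when they were 4 or 8 weeks old. The 4 groups were 4-week β-cells, 8-week β-cells, 4-week non-β-cells and 8-week non-β-cells, with 3 samples each and 12 in all. All were NOD/ShiLtJ females with no added allele or agent, so the data hold no diabetes-resistant strain. Per the study's methods, each sample was a pool of 3 mice, islets were cultured overnight before dispersal, and cells were sorted by their own fluorescence after removal of CD45-positive leukocytes. The non-β fraction is what that gate leaves, not a single cell type.

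The Hippo pathway is a kinase cascade that limits organ growth. The kinases encoded by Stk3 and Stk4 activate LATS1 and LATS2, which phosphorylate the coactivators YAP (Yap1) and TAZ (Wwtr1) and hold them out of the nucleus, while unphosphorylated YAP and TAZ act on genes through TEAD transcription factors. PTPN14 and the angiomotin-like scaffolds AMOTL1 and AMOTL2 bind YAP and keep it at junctions or in the cytoplasm. In the pancreas, YAP is present in duct cells and is lost from endocrine cells as they form. TNFRSF12A, also called Fn14, is the receptor for the cytokine TWEAK (Tnfsf12) and signals to NF-κB. It is not a Hippo component.

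TEAD factors bind DNA at a short motif, and the start sites of these genes were read for it. RefSeq promoter windows of build GRCm38.p6, running from 250 bases before to 50 bases after a transcription start, were present for 8 of the 9 genes, all but Tead1. The letters GGAATG were searched on both strands, so that a match on the other strand reads CATTCC. Windows of 5 of the 8 genes (62.5%) held a match, against 14.7% of all 32851 windows and 16.6% of the 27025 genes with a window. Among the other Hippo genes, a match was present in 6 of 19 upstream regulators (31.6%), 4 of 6 transcription partners (66.7%) and 4 of 12 known targets of YAP and TAZ (33.3%), and 3 of 9 TWEAK pathway genes (33.3%) held one. The windows of Lats1, Amotl1 and Tnfrsf12a held none. A match is a description of the letters, not a binding site. The 250 bases upstream of the start are shown 5′ to 3′ on the gene's own strand, in lower case with the motif in capitals, for the gene that differed most with age in β-cells, for 3 of the pathway's own genes with a match, and for Tnfrsf12a as the gene without one.
Ptpn14: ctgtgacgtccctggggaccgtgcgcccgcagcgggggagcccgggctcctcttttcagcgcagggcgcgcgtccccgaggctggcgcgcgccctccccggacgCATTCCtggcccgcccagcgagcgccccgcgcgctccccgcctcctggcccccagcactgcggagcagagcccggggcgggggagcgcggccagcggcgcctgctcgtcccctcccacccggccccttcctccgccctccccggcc
Amotl2: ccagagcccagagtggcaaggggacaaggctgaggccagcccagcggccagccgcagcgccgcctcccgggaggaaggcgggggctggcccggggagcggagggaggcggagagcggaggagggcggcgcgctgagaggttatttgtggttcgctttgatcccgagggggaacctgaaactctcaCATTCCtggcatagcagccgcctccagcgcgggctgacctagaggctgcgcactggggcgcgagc
Yap1: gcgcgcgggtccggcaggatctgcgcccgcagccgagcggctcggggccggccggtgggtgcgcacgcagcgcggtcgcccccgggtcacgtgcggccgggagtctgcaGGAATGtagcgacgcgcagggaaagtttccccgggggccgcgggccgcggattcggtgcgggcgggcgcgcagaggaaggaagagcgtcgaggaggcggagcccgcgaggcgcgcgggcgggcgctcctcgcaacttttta
Wwtr1: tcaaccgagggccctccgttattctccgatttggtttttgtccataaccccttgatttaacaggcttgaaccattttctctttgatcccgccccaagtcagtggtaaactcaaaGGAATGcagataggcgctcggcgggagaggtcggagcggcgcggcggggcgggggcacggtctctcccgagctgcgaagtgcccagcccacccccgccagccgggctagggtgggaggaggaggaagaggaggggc
Tnfrsf12a: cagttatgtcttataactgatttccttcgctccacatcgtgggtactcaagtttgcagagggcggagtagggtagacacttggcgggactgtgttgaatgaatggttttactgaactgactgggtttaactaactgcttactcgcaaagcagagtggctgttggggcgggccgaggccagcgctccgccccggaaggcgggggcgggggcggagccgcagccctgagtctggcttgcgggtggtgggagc
These stretches lie at chr1:189728018-189728267 on the plus strand (Ptpn14), chr9:102717554-102717803 on the plus strand (Amotl2), chr9:8004597-8004846 on the minus strand (Yap1), chr3:57575911-57576160 on the minus strand (Wwtr1) and chr17:23677450-23677699 on the minus strand (Tnfrsf12a). The match began at position -146 from the start in Ptpn14, -65 in Amotl2, -141 in Yap1 and -136 in Wwtr1. A gene was counted if any of its windows held a match. A Lats2 window with upstream bases at chr14:57734419-57734668 on the minus strand held none. In the other Lats2 window the match lay just past the start, at position 4, and 30 bases around it are shown from chr14:57746102-57746131 on the minus strand.
Lats2: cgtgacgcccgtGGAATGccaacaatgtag

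Total estimated counts ranged from 13754913 to 27040436 per sample. Levels are given as CPM, the count divided by the library total after TMM scaling. Summed β-cell markers (8 genes, insulin genes included) ranged from 46690 to 113400 CPM in β samples and from 2876 to 5867 CPM in non-β samples. Summed α-cell markers (6 genes) ranged from 1518 to 9406 CPM in β samples and from 106000 to 135700 CPM in non-β samples, so the labels of both fractions matched their markers. The non-β samples also held delta-cell markers (5312 to 11680 CPM) and PP-cell markers (6765 to 9891 CPM). Of 9 leukocyte markers, 7 were too low to test, and Ptprc, which encodes CD45, did not exceed 0.7888 CPM. Both tested markers were higher in β-cells at both ages. One of them, Cd68, a macrophage gene, was at 47.53 to 50.14 CPM in 4-week and 64.03 to 74.09 CPM in 8-week β-cells and at 7.682 to 18.9 CPM in non-β-cells, and it was higher at 8 weeks in both fractions (adjusted p = 0.0136 and 0.0106 by limma-voom). Summed Schwann cell markers stayed between 9.568 and 19.2 CPM. Samples numbered 3 of both 4-week groups stood apart, with the lowest value of their group for Ptpn14, Lats1, Amotl1 and Tead1.

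**Figure D1:**
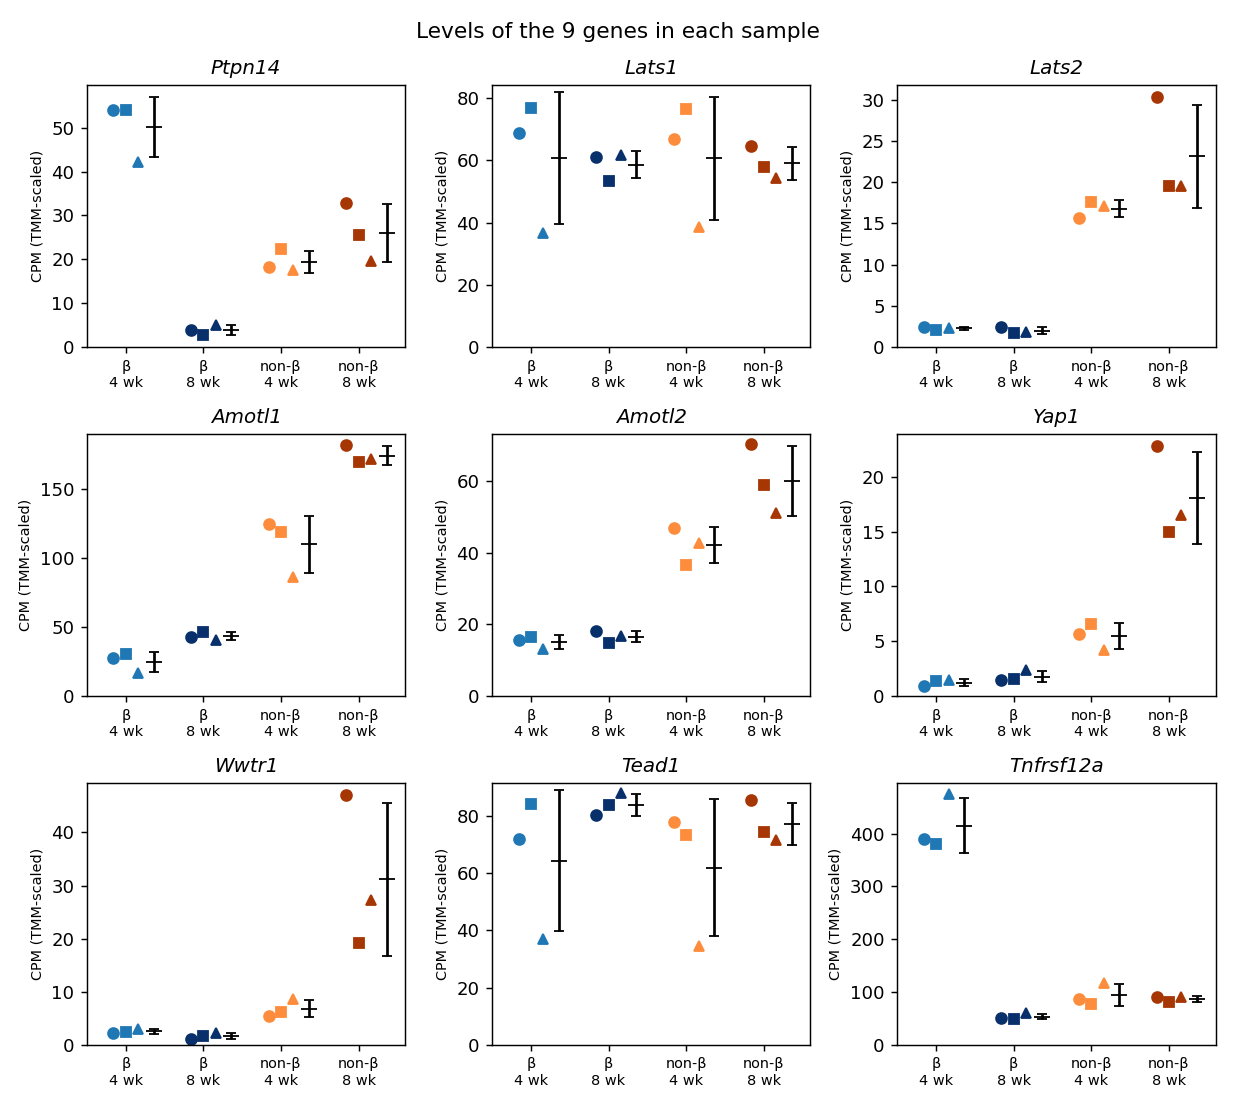
Level of each of the 9 genes in the 12 samples, in CPM on linear axes that start at 0, with one panel per gene. Points are samples, with their shape giving the sample number, and black bars give the group mean ± SD (n = 3). Ptpn14 and Tnfrsf12a were lowest in 8-week β-cells, where Ptpn14 lay between 2.751 and 4.974 CPM, and Yap1 and Wwtr1 were highest in 8-week non-β-cells.

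Ptpn14, the phosphatase gene of the set, had its highest level in 4-week β-cells and its lowest in 8-week β-cells. The 4-week β samples had 54.1, 54.11 and 42.16 CPM and the 8-week β samples 3.839, 2.751 and 4.974 CPM, from 919 to 1365 and from 73 to 124 counts. Every 4-week β value lay above every 8-week β value. The means were 50.12 ± 6.898 and 3.855 ± 1.112 CPM (SD, n = 3), a log2 change of -3.74 (SE 0.30). In non-β-cells Ptpn14 was at 18.21, 22.26 and 17.6 CPM at 4 weeks and at 32.81, 25.62 and 19.73 CPM at 8 weeks. These groups overlapped, and the log2 change of 0.42 (SE 0.20) did not pass the test (limma-voom, adjusted p = 0.193). The β minus non-β difference of Ptpn14 was 1.37 (SE 0.19) on the log2 scale at 4 weeks and -2.78 (SE 0.31) at 8 weeks, so the fraction with the higher level was the β fraction at 4 weeks and the non-β fraction at 8 weeks. Ptpn14 lies on chromosome 1 at 189728268 to 189876695 on the plus strand of GRCm38 and shares part of that span with Gm30280 on the same strand, so reads of these overlapping genes may have been split.

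Tnfrsf12a, the TWEAK receptor gene, had the highest level per length of the 9 in every group, and in β-cells was also lower at 8 weeks. The 4-week β samples had 389.1, 380.5 and 475.4 CPM and the 8-week β samples 51.57, 49.03 and 59.33 CPM. The groups did not overlap, and the log2 change between means of 415 ± 52.47 and 53.31 ± 5.366 CPM was -2.96 (SE 0.15, n = 3). Non-β samples had 87.37, 76.72 and 117.6 CPM at 4 weeks and 90.46, 80.46 and 91.15 CPM at 8 weeks. There the groups overlapped, with a log2 change of -0.08 (SE 0.15, adjusted p = 0.794 by limma-voom). The β minus non-β difference was 2.16 (SE 0.15) on the log2 scale at 4 weeks and -0.72 (SE 0.16) at 8 weeks. Tnfrsf12a lies on chromosome 17 at 23675445 to 23677468 on the minus strand, with no other annotated gene overlapping it.

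The kinase genes of the set differed from one another. Lats1 was at 68.76, 76.86 and 36.7 CPM in 4-week β-cells and at 60.96, 53.52 and 61.62 CPM in 8-week β-cells. In non-β-cells it was at 66.94, 76.43 and 38.6 CPM at 4 weeks and at 64.67, 57.97 and 54.46 CPM at 8 weeks. All 4 groups of Lats1 overlapped, and sample 3 was the low one at 4 weeks in both fractions. The log2 change with age was 0.01 (SE 0.27) in β-cells, which became -0.32 without the 4-week samples numbered 3, and 0.02 (SE 0.27, adjusted p = 0.981 by limma-voom) in non-β-cells. Lats2, the other LATS kinase gene, was low in β-cells, at 2.443, 2.101 and 2.339 CPM at 4 weeks and 2.498, 1.734 and 1.805 CPM at 8 weeks. Non-β levels of Lats2 were 15.68, 17.61 and 17.06 CPM at 4 weeks and 30.34, 19.57 and 19.52 CPM at 8 weeks. The non-β groups did not overlap, yet the change of 0.47 on the log2 scale (SE 0.17) missed the threshold (adjusted p = 0.0787). Without the third 8-week non-β sample the change was 0.61 with an adjusted p of 0.0469, within a range of 0.0469 to 0.406 over 19 alternatives.

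The angiomotin-like scaffold genes were higher in non-β-cells and higher at 8 than at 4 weeks there. Amotl1 was at 125.1, 119 and 86.57 CPM in 4-week and 182.2, 169.8 and 172 CPM in 8-week non-β-cells, with no overlap. Its log2 change was 0.68 (SE 0.17, adjusted p = 0.0156 by limma-voom). In β-cells it was at 27.64, 30.44 and 16.61 CPM at 4 weeks and 42.97, 46.77 and 40.84 CPM at 8 weeks, also with no overlap and a log2 change of 0.85 (SE 0.20). Amotl2 was at 46.9, 36.7 and 42.74 CPM in 4-week and 70.34, 58.94 and 50.97 CPM in 8-week non-β-cells, again apart, with a log2 change of 0.51 (SE 0.14, adjusted p = 0.0243). Amotl2 in β-cells was at 15.57, 16.57 and 13.03 CPM at 4 weeks and 18.08, 14.89 and 16.77 CPM at 8 weeks, groups that overlapped. The Amotl1 call in non-β-cells was lost without the third 4-week sample (adjusted p = 0.0541) or the first 8-week sample (0.0623) of that fraction, in a range from 0.000426 to 0.0623. The Amotl2 call was lost without the second 4-week sample (0.121), the first 8-week sample (0.147) or the second 8-week sample (0.0557), and with scaling to total counts (0.0609), in a range from 0.0112 to 0.147.

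The coactivator genes Yap1 and Wwtr1 had the largest age differences of the 9 genes in non-β-cells. Yap1 was at 5.661, 6.556 and 4.191 CPM at 4 weeks and at 22.85, 14.94 and 16.49 CPM at 8 weeks, so that every 8-week value exceeded every 4-week value. The log2 change was 1.75 (SE 0.23, adjusted p = 0.000159 by limma-voom). Wwtr1 was at 5.508, 6.263 and 8.628 CPM at 4 weeks and at 47.09, 19.2 and 27.23 CPM at 8 weeks, with a log2 change of 2.20 (SE 0.33, adjusted p = 0.000412). These groups did not overlap either, and the calls of both genes held in all 19 alternatives. In β-cells both were low. Yap1 had 0.8652, 1.348 and 1.468 CPM at 4 weeks and 1.434, 1.545 and 2.327 CPM at 8 weeks, from 17 to 58 counts per sample. Wwtr1 had 2.188, 2.378 and 3.027 CPM at 4 weeks and 1.11, 1.583 and 2.247 CPM at 8 weeks, from 24 to 66 counts. The groups overlapped for both, and the log2 changes in β-cells were 0.51 (SE 0.51) and -0.64 (SE 0.70).

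Tead1, whose product carries YAP and TAZ to DNA, was present at like levels in both fractions. It was at 71.81, 84.31 and 36.93 CPM in 4-week and 80.2, 83.63 and 87.94 CPM in 8-week β-cells, and at 78.03, 73.34 and 34.46 CPM in 4-week and 85.44, 74.33 and 71.42 CPM in 8-week non-β-cells. As for Lats1, sample 3 was low at 4 weeks in both fractions. The log2 change in non-β-cells was 0.40 (SE 0.31, adjusted p = 0.448 by limma-voom) and that in β-cells 0.46 (SE 0.30). Without the 4-week samples numbered 3 these were 0.03 and 0.10. Tead1 overlaps Gm44462 on the same strand, Lats2 overlaps Gm49361 and Amotl1 overlaps 4930584E12Rik, so their counts carry the same limit as those of Ptpn14.

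With age in non-β-cells, 4 of the 9 genes passed the test and all 4 were higher at 8 weeks, where 16.4% of all genes tested passed and 11.6% passed as higher. The median log2 change of the 9 was 0.47, against 0.01 over all genes. In β-cells 3 of the 9 (Amotl1 higher, Ptpn14 and Tnfrsf12a lower) were past the threshold, where 17.9% of all genes were. That count rests on the comparison used to choose genes, and nothing is read from it.

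**Figure D2:**
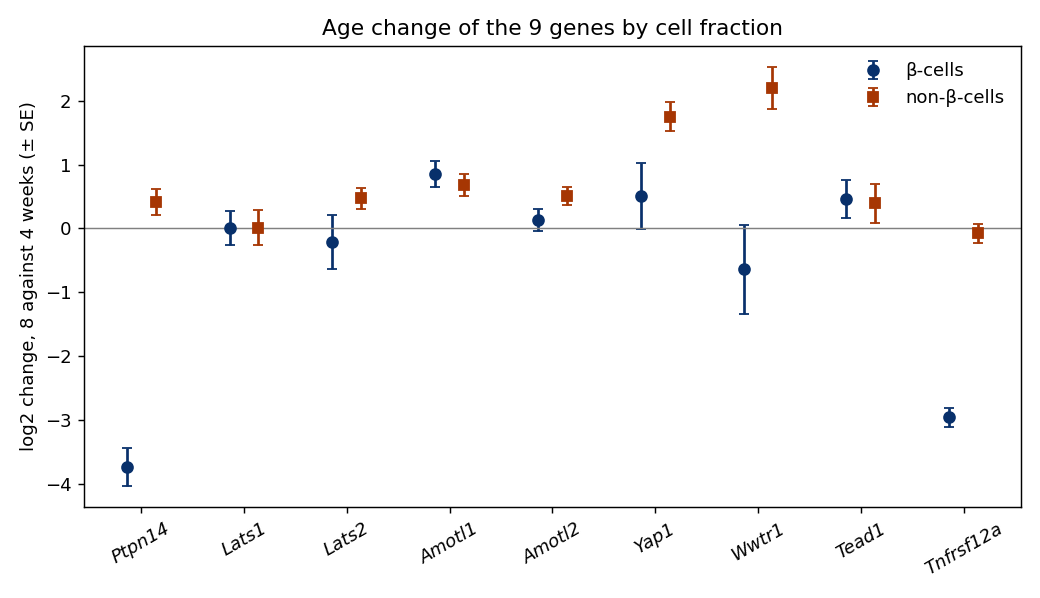
Fitted log2 change from 4 to 8 weeks of each of the 9 genes in β-cells (circles) and non-β-cells (squares), with bars of 1 SE from 3 samples per group. Ptpn14 (-3.74) and Tnfrsf12a (-2.96) stood lowest in β-cells, and Wwtr1 (2.20) and Yap1 (1.75) highest in non-β-cells.

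Markers of other cell types moved with age in the same non-β samples. Of 10 endothelial markers 9 could be tested and all 9 rose, with sums from 55.53 to 98.9 CPM at 4 weeks and from 416.9 to 1115 CPM at 8 weeks. All 10 mesenchymal markers rose, with sums from 111.5 to 314.2 CPM and from 718.9 to 1109 CPM. Duct markers rose in 4 of 7 (969.8 to 1237 CPM, then 2299 to 2537 CPM) and acinar markers in 4 of 7 (34.15 to 85.49 CPM, then 192.1 to 688.9 CPM). Of 8 β-cell markers 3 passed as higher and 1 as lower, with sums of 2876 to 4008 CPM, then 4948 to 5867 CPM. Of 4 delta-cell markers 1 passed as higher (5312 to 8021 CPM, then 8204 to 11680 CPM). Of 6 α-cell markers 2 passed as lower, and of 2 PP-cell markers 0 passed. The first 8-week non-β sample had the highest endothelial sum, 1115 CPM, and the highest value of its group for 8 of the 9 genes, all but Tnfrsf12a. It also had the highest acinar sum of its group, 688.9 CPM, and the lowest mesenchymal sum, 718.9 CPM. Without it the log2 change was 1.53 for Yap1, 1.81 for Wwtr1, 0.63 for Amotl1, 0.36 for Amotl2, 0.21 for Lats2 and 0.19 for Ptpn14, and 2 of the 9 genes passed the test. Over all genes 1810 of 15281 passed without that sample, against 2561 of 15598 with it. The part of these cell types in the changes of Yap1, Wwtr1, Amotl1 and Amotl2 was not tested. In sorted bulk samples, more cells of a type and more RNA per cell cannot be told apart. In β samples the endothelial sum was 7.729 to 17.06 CPM at 4 weeks and 14.66 to 18.05 CPM at 8 weeks, with Cldn5 at 0 in all 8-week samples, and the mesenchymal sum was 4.4 to 16.24 CPM and 26.95 to 55.4 CPM. Summed acinar markers in β samples went from between 87.6 and 174.3 CPM to between 403.3 and 842.3 CPM, and α-cell markers from between 5625 and 9406 CPM to between 1518 and 2572 CPM. The duct sum went from between 1257 and 1706 CPM to between 1952 and 2083 CPM, yet of 7 duct markers 1 passed as higher and 1 as lower. Mean Spp1 went from 99.23 to 942.8 CPM, Krt7 from 856.6 to 739.6 CPM and Epcam from 433 to 276.4 CPM. The part of these marker types in the β-cell values was not tested.

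**Figure D3:**
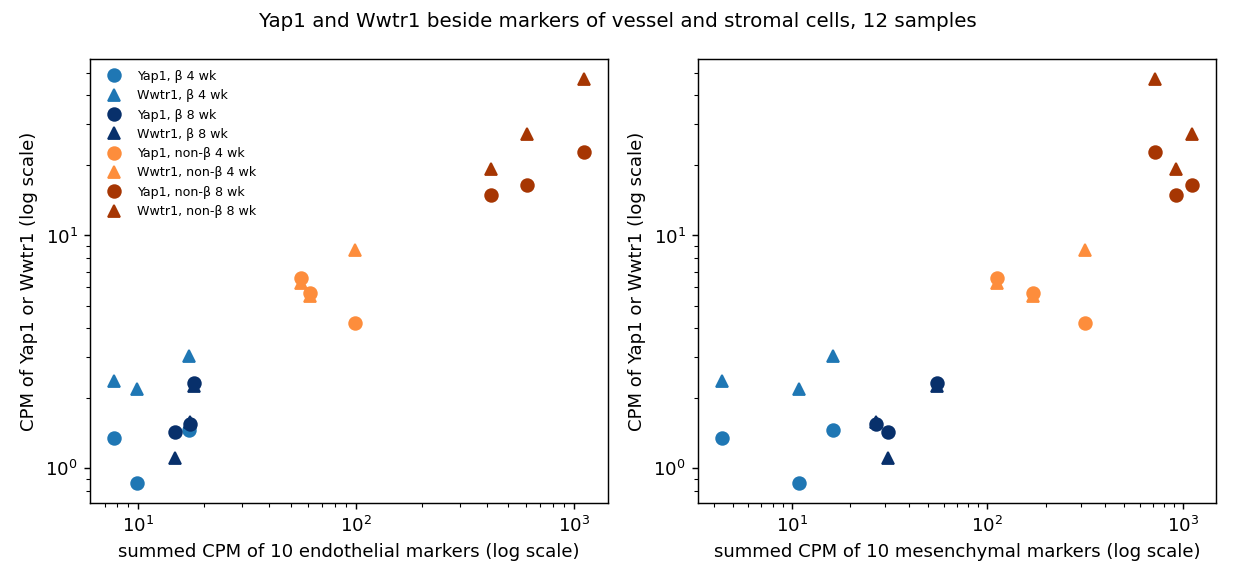
Yap1 and Wwtr1 levels against the summed level of the endothelial and the mesenchymal markers in the 12 samples, all in CPM on log axes, with circles for Yap1, triangles for Wwtr1 and colours for the groups. The 3 samples of 8-week non-β-cells lay at the upper right for both genes and both marker sums, with endothelial sums from 416.9 to 1115 CPM.

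Between fractions, most Hippo genes of the set had their lower level in β-cells. Ptpn14 and Tnfrsf12a are left out of this count. At 4 weeks 5 of the other 7 genes passed the test and all 5 were lower in β-cells, where 48.5% of all genes tested passed and 23.7% passed as lower. On the log2 scale of β minus non-β, the difference was -2.86 (SE 0.32) for Lats2, -2.17 (SE 0.20) for Amotl1, -2.13 (SE 0.45) for Yap1, -1.48 (SE 0.17) for Amotl2 and -1.38 (SE 0.52) for Wwtr1. The adjusted p of the first 4 lay between 1.745e-06 and 0.00169 by limma-voom. That of Wwtr1 was 0.0437, and the call was lost in 11 of 19 alternatives, with an adjusted p from 0.000331 to 0.154 over all of them. Left out singly, any 4-week β sample (0.0985, 0.11 and 0.0902), 4-week non-β sample 2 or 3 (0.0614 and 0.0944), 8-week β sample 2 or 3 (0.055 and 0.0516) or the third 8-week non-β sample (0.0535) ended it. At 8 weeks 5 of the 7 genes passed the test and all 5 were lower in β-cells, where 49.2% of all genes passed and 25.6% passed as lower. The differences were -4.22 (SE 0.57) for Wwtr1, -3.55 (SE 0.32) for Lats2, -3.38 (SE 0.34) for Yap1, -2.01 (SE 0.18) for Amotl1 and -1.86 (SE 0.16) for Amotl2, with adjusted p between 7.609e-07 and 4.689e-05. Lats1 and Tead1 did not pass at either age. Lats1 differed by -0.01 (SE 0.27) at both ages, and Tead1 by 0.05 (SE 0.31) at 4 weeks and 0.12 (SE 0.30) at 8 weeks, with adjusted p between 0.757 and 0.977.

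The difference between fractions in the change with age, β minus non-β, was -4.16 (SE 0.36) for Ptpn14 and -2.88 (SE 0.22) for Tnfrsf12a on the log2 scale. It was -2.84 (SE 0.77) for Wwtr1, -1.25 (SE 0.56) for Yap1 and -0.69 (SE 0.45) for Lats2, and between -0.38 and 0.17 for Amotl2, Lats1, Tead1 and Amotl1. Of the 9 genes 2, Ptpn14 and Tnfrsf12a, were past the threshold, against 5.13% of all genes, and edgeR, DESeq2 and a replicate block each gave 3. The values include the comparison used to choose genes, and nothing is read from the count.

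Levels of different genes were compared after division by exon length, as CPM per kilobase. In 4-week β-cells the order was Tnfrsf12a (214.8), Lats1 (8.328), Tead1 (4.742), Ptpn14 (3.737), Amotl1 (2.474), Amotl2 (2.394), Wwtr1 (0.5297), Lats2 (0.3291) and Yap1 (0.1325). The sample ranges of Lats1 and Tead1, Tead1 and Ptpn14, and Amotl1 and Amotl2 overlapped, so these neighbours could not be ordered. In 8-week β-cells Tnfrsf12a was still first, at 27.59, and Ptpn14 had moved to 0.2874, where its range overlapped those of Lats2 (0.2886) and Yap1 (0.1911). In 4-week non-β-cells Tnfrsf12a (48.6) was followed by Amotl1 (10.95), Lats1 (8.312), Amotl2 (6.696), Tead1 (4.565), Lats2 (2.408), Ptpn14 (1.443), Wwtr1 (1.423) and Yap1 (0.5908), with overlap between Amotl1 and Lats1, Lats1 and Amotl2, and Ptpn14 and Wwtr1. In 8-week non-β-cells Tnfrsf12a (45.21) and Amotl1 (17.35) were first, Wwtr1 had moved up to 6.523 between Lats1 (8.09) and Tead1 (5.679), whose ranges it overlapped, and Yap1 (1.955) and Ptpn14 (1.942) were last and overlapped.

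Of the other genes of the Hippo and TWEAK pathways, 63 were listed by role and 58 could be tested. In non-β-cells 28 of the 58 passed the test with age and all 28 were higher at 8 weeks, a share of 48.3% against 16.4% of all genes, with a median log2 change of 0.48. In β-cells 7 passed, 3 higher and 4 lower, a share of 12.1% against 17.9% of all genes, with a median of 0.16. The lists were put together with results of these data known, so the counts are a description. Tead4 and Traf1, both among the 28, passed the filter on low counts only through the 8-week non-β samples, where they were high.

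**Figure D4:**
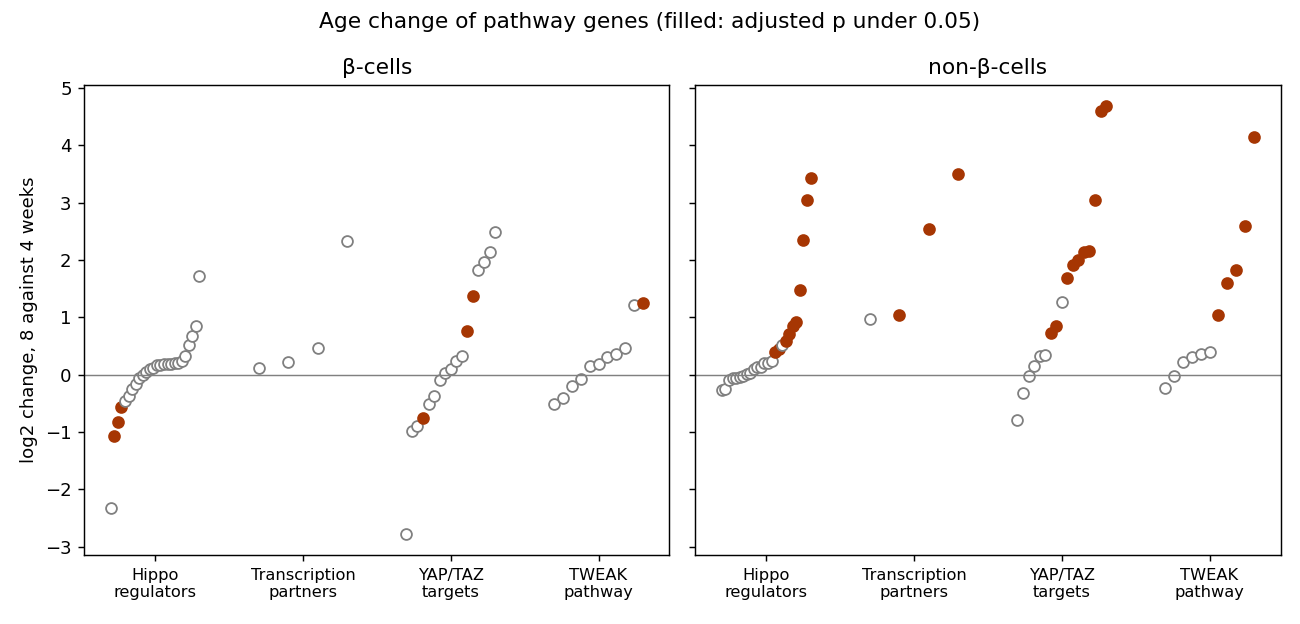
Fitted log2 change from 4 to 8 weeks of the tested genes of the 4 pathway lists, with one point per gene sorted by value within its list, β-cells on the left and non-β-cells on the right. Filled points had an adjusted p under 0.05, and all 28 filled points of non-β-cells lay above 0, against 3 of 7 in β-cells.

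Among 26 upstream regulators tested, 10 passed with age in non-β-cells (38.5%) and all 10 were higher. Of all genes 16.4% passed there and 11.6% passed as higher. Frmd6, a FERM-domain regulator of the cascade, went from 10.18, 8.905 and 7.001 CPM to 28.13, 19.57 and 24.15 CPM, so the change was 1.47 on the log2 scale (SE 0.19) with an adjusted p of 0.000136 by limma-voom. The atypical cadherin genes Fat4 and Dchs1, a ligand and receptor pair between neighbouring cells, went from between 1.233 and 2.639 to between 7.695 and 16.14 CPM and from between 0.1957 and 1.331 to between 5.96 and 10.17 CPM. Their adjusted p values were 0.00193 and 0.00224. Ajuba, which encodes a LIM protein that inhibits LATS kinases, was also higher (adjusted p = 0.0166), from at most 1.085 CPM to between 1.643 and 8.224 CPM, a call lost without 4-week non-β sample 1 (0.0752) or 2 (0.0523). Of the core kinase genes, Stk3 rose by 0.59 on the log2 scale (SE 0.18, adjusted p = 0.0346), a call lost in 8 of the 19 alternatives (adjusted p up to 0.135), among them those without any 4-week non-β sample (0.0529, 0.135 and 0.0562), 8-week non-β sample 1 or 2 (0.128 and 0.0879) or the first 4-week β sample (0.0511). Stk4 changed by 0.04 (SE 0.15, adjusted p = 0.904). Nf2, which encodes the upstream scaffold merlin, changed by 0.13 (SE 0.15, adjusted p = 0.611). In β-cells 3 of the 26 regulators passed (11.5%), all lower, where 17.9% of all genes passed and 9.35% passed as lower. These 3 were Rassf1, a scaffold of the STK kinases (log2 change -1.06, SE 0.20, adjusted p = 0.00332), Mob1a, a coactivator of LATS (-0.82, SE 0.14, adjusted p = 0.00155), and Scrib, a polarity scaffold (-0.56, SE 0.10, adjusted p = 0.00214). Stk3 (0.52, adjusted p = 0.0714), Stk4 (0.18, adjusted p = 0.412) and Nf2 (0.16, adjusted p = 0.486) did not pass in β-cells.

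Of 7 transcription partner genes listed 4 could be tested, and 3 of them (75%) rose with age in non-β-cells, where 11.6% of all genes did. Among these, Tead4 exceeded 1 CPM only in the 8-week non-β samples. It was tested only through the group where it was high. Its call therefore adds no support to this count or to the count between fractions at 8 weeks. Vgll4, whose product competes with YAP for TEAD factors, went from 11.82, 14.19 and 12.13 CPM to 26.92, 26 and 24.76 CPM, so the change was 1.04 on the log2 scale (SE 0.13) with an adjusted p of 9.544e-05 by limma-voom. Tead2 went from between 0.4404 and 1.479 CPM to between 4.264 and 7.055 CPM (adjusted p = 0.00888, lost with edgeR at 0.0724), and Tead4 from at most 0.8033 CPM to between 1.419 and 2.987 CPM (adjusted p = 0.0278). The Tead4 call was lost in 5 alternatives (adjusted p up to 0.143), among them those without 4-week non-β sample 2 (0.0709) or 3 (0.0637). Tead3 missed the threshold, with a log2 change of 0.98 (SE 0.35, adjusted p = 0.0769). In β-cells 0 of the 4 passed by limma-voom, edgeR or DESeq2, and 0 had an unadjusted p under 0.05. Of all genes 17.9% passed by limma-voom, 2820 of 15598 by edgeR and 3586 of 15590 by DESeq2. With only 4 genes, nothing is read from this count. Against non-β-cells, partner genes were lower in β-cells in 2 of 4 at 4 weeks and 4 of 4 at 8 weeks, where 23.7% and 25.6% of all genes were.

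Among 17 known targets of YAP and TAZ tested, of 19 listed, 10 (58.8%) rose with age in non-β-cells, where 11.6% of all genes did. The median log2 change over the 17 was 1.26. Cyr61, a matricellular protein gene and a standard readout of YAP, was at 53.59, 54.65 and 79.37 CPM at 4 weeks and 296.7, 221 and 222.3 CPM at 8 weeks. Every 8-week value lay above every 4-week value, and the log2 change was 1.99 (SE 0.19, adjusted p = 1.15e-05 by limma-voom). Ctgf, a related matricellular gene, went from 8.721, 4.306 and 15.78 CPM to 89.6, 59.61 and 61.29 CPM, so the change was 3.04 on the log2 scale (SE 0.32) with an adjusted p of 2.712e-05. Ankrd1, which encodes an ankyrin-repeat cofactor, went from 2.869, 0.8318 and 5.472 CPM to 109.2, 49.3 and 42.08 CPM (adjusted p = 0.000378), and Igfbp3, an IGF-binding protein gene, from 4.896, 1.321 and 10.6 CPM to 128.1, 64.47 and 118.6 CPM (adjusted p = 5.144e-05). Gadd45b, a stress-response gene, rose by 2.14 (SE 0.17) and Myof, a membrane-repair gene, by 2.16 (SE 0.28) on the log2 scale. The endothelial and mesenchymal marker sums given above moved with these targets, and their part was not tested. In β-cells 3 of the 17 passed, 17.6% against 17.9% of all genes. By edgeR 7 of the 17 passed, where 2820 of 15598 genes did, and by DESeq2 9 of the 17, where 3586 of 15590 did. The count in β-cells thus depended on the tool. Cyr61 was at 3.41, 4.202 and 4.908 CPM at 4 weeks and 9.991, 8.027 and 15.85 CPM at 8 weeks, with no overlap and a log2 change of 1.37 (SE 0.38, adjusted p = 0.0251). Without 1 of the 4-week β samples (0.0856, 0.0814 and 0.0628) or the third 8-week β sample (0.0841) the Cyr61 call was lost, and it was also lost with no filter on low counts (0.0582). Nuak2, a kinase gene, was higher by 0.77 (SE 0.22, adjusted p = 0.0311). The Nuak2 call was lost in 8 alternatives, among them those without any 4-week β sample (0.0846, 0.0657 and 0.0787) or 8-week β sample 2 or 3 (0.0837 and 0.114). F3, the tissue factor gene, was lower at 8 weeks (log2 change -0.75, SE 0.19, adjusted p = 0.0149). Ctgf (0.09, SE 1.10, adjusted p = 0.965) and Ankrd1 (2.14, SE 1.62, adjusted p = 0.398) did not pass in β-cells, where no sample exceeded 1.927 CPM and 2.768 CPM. Between fractions 12 of the 17 targets passed at 4 weeks, 11 of them lower in β-cells, and 15 at 8 weeks, 14 of them lower. Of all genes 48.5% passed at 4 weeks (23.7% as lower) and 49.2% at 8 weeks (25.6% as lower). The exception at both ages was Dock5, a guanine exchange factor gene, at 1.43 (SE 0.27) and 2.13 (SE 0.29) on the log2 scale of β minus non-β.

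Of the 11 other TWEAK pathway genes tested, 1 passed with age in the β fraction and 5 in the non-β fraction, all higher at 8 weeks. These are 9.09% and 45.5%, against 17.9% and 16.4% of all genes. Tnfsf12, its ligand gene, was at 35.07, 26.72 and 44.72 CPM in 4-week and 25.39, 26.04 and 21.54 CPM in 8-week β-cells, with no overlap and a log2 change of -0.51 (SE 0.18, adjusted p = 0.0639 by limma-voom). It passed in 4 of 19 alternatives, without the second 4-week β sample (0.0136) or the second 4-week non-β sample (0.0454), by DESeq2 (0.0337) and with scaling to total counts (0.031), in a range from 0.0136 to 0.19. In non-β-cells it changed by -0.24 (SE 0.21, adjusted p = 0.504), and it was higher in β- than in non-β-cells at 4 weeks by 0.75 (SE 0.18, adjusted p = 0.00495). In β-cells the gene that passed was Birc3, an inhibitor of apoptosis gene induced by NF-κB. It went from 17.51, 19.34 and 20.32 CPM to 44.59, 41.68 and 49.42 CPM, so the change was 1.24 on the log2 scale (SE 0.13) with an adjusted p of 5.129e-05. In non-β-cells Birc3 went from 15.84, 18.69 and 14.64 CPM to 107.5, 86.81 and 101.7 CPM (log2 change 2.60, SE 0.14, adjusted p = 1.606e-07). The noncanonical NF-κB subunit genes Nfkb2 and Relb rose by 1.82 (SE 0.14) and 1.60 (SE 0.17), and Map3k14, which encodes their activating kinase NIK, by 1.04 (SE 0.12). Traf1, an adaptor gene, was the fifth (adjusted p = 0.0111, lost with edgeR at 0.0905 and DESeq2 at 0.0629) and stayed at or under 2.877 CPM in every sample. It exceeded 1 CPM only in the 8-week non-β samples, so it was tested only through the group where it was high. Its call adds no support to the count of 5.

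Only tested genes with a symbol and a mean log2 CPM of at least 3 were ranked by likeness to Ptpn14 and Tnfrsf12a. The genes among them with the most similar pattern were found by Pearson correlation of log2 CPM over the 12 samples, which share 4 groups. For Ptpn14 these were Rdh11 (r = 0.963), Trp53 (0.953), Gas2l1 (0.949), Mvd (0.943) and Cnnm4 (0.933). Rdh11, ranked first, had group means of 65.12 CPM in 4-week and 29.35 CPM in 8-week β-cells and of 53.2 and 62.51 CPM in non-β-cells. The Mvd group means, which differed most between β groups among the 5, were 69.78 CPM in 4-week and 10.64 CPM in 8-week β-cells and 54.68 and 45.74 CPM in non-β-cells. For Tnfrsf12a they were Rab3b (0.963), Dbi (0.958), Ppif (0.958), Gar1 (0.957) and Fdps (0.957). Rab3b, ranked first, had means of 92.38 and 24.82 CPM in β-cells and of 45.47 and 38.18 CPM in non-β-cells, and Gar1 had 18.73 and 11 CPM in β-cells. The Fdps means, which differed most between β groups among these 5, were 951.2 and 169.9 CPM in β-cells and 404.6 and 276.7 CPM in non-β-cells. Within the set, Ptpn14 and Tnfrsf12a correlated at 0.80 and Lats1 and Tead1 at 0.85. Lats2, Amotl1, Amotl2, Yap1 and Wwtr1 correlated with each other at 0.82 to 0.98 over their 10 pairs, all genes with higher levels in the non-β fraction.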

How the data were processed

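The deposited values were estimated counts per gene, 14% to 19.3% of them not whole. The authors made them from 100-base single-end reads of a strand-specific total RNA kit, with fastp and kallisto against Ensembl release 98 (GRCm38) and summed over transcripts with tximport, and versions are not given in the sources used here. Reads shared by overlapping or similar genes are divided by kallisto, which could move counts between them. Here counts were rounded, genes with CPM above 1 in at least 3 samples were kept (15598 of 52962) and library sizes were scaled by TMM (edgeR 4.0.16). The main test was limma-voom (limma 3.58.1, R 4.3.3) with 4 group means over all 12 samples and two-sided tests with Benjamini-Hochberg adjustment over all genes at 0.05. Exon lengths came from GENCODE M21. Symbols came from a separate list of gene names, with the GENCODE M21 name where that list had no entry. The log2 CPM for correlations used a prior count of 2. Alternatives were edgeR and DESeq2 (1.42.0) tests, other scalings, no filter, a replicate block and samples left out. The labels do not say that samples came from separate animals. The paper describes 3 pools of 3 mice per group as independent, so p-values measure the spread between these pools. All 9 genes are described. From each pathway list at most 6 genes past the threshold per comparison may be named, by absolute change, besides Cyr61, Ctgf, Ankrd1, Nf2, Stk3, Stk4, Tead2, Tead3, Tead4, Vgll4 and Tnfsf12. Genes and lists were chosen with earlier results of these data known. Markers named singly, Dock5 and the genes whose age change differed between fractions were named after their values were seen.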

Additional observations from a re-analysis of the deposited data

Results flagged for a closer look

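Of all genes 5.13% passed a test of the difference between fractions in the change with age (limma-voom, β minus non-β, log2 scale). Of the 58 pathway genes tested, 9 passed it. Among targets of YAP and TAZ these were Gadd45b at -2.11 (adjusted p = 0.00049, changes 0.03 in β- and 2.14 in non-β-cells), Crim1 at -1.83 (0.0325, -0.98 and 0.85, lost in 8 of 19 alternatives, adjusted p up to 0.102) and F3 at -1.48 (0.00525, -0.75 and 0.72). Among TWEAK pathway genes they were Relb at -1.67 (0.00111, -0.07 and 1.60), Nfkb2 at -1.46 (0.00075, 0.36 and 1.82) and Birc3 at -1.36 (0.00112, 1.24 and 2.60). Among regulators and partners they were Rassf1 at -1.57 (0.00431, -1.06 and 0.51), Map4k4 at -0.87 (0.0478, -0.16 and 0.71, lost in 11 of 19, up to 0.114) and Vgll4 at -0.92 (0.0395, 0.12 and 1.04, lost in 12 of 19, up to 0.122). All 9 differences were negative, and over all genes 520 of the 800 past the threshold were negative too. Groups of 3 samples were not tested for outlying samples.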

How the results depend on the processing

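Of 193 values recomputed under the alternatives, 171 were given with a test, of which 30 lost a call under at least 1 alternative and 13 gained one. The other 22, given as a description, were judged by direction and size. A change of sign was counted as a reversal only where the value was past the threshold in the main fit or the alternative, and 1 reversed. In all, 16 values changed sign without passing the threshold. The number of pathway genes past the threshold with age in β-cells was 7, and became 12 by edgeR, 17 by DESeq2 and 11 without the 4-week samples numbered 3, while the number among all genes went from 2799 to 2820, 3586 and 3504. The cause was not tested. The number of the 9 genes past the threshold in non-β-cells was 4 and ranged from 2 to 5 with 1 sample left out, 2 being the value without the first 8-week non-β sample. Over all genes 1810 passed without that sample, against 2561 with it. Lats1 in β-cells went from 0.01 to -0.32 without the 4-week samples numbered 3. Sample numbers were taken as a number only: same-numbered samples correlated between groups at -0.006 to 0.306 in deviations over all genes, not above 0.1 in every pair of any comparison. Over the 10280 genes with a mean log2 CPM of at least 3, the 4-week fractions correlated at 0.29 to 0.67 in all 3 pairs, a hint of pairing there, while each other comparison had a pair at or below -0.03. A replicate block gave 3 and 4 of the 9 genes past the threshold with age in β- and non-β-cells and 3 for the difference in age change (2 without it), and 5 of 7 between fractions at either age, as without it. Among pathway genes it gave 7 and 30 with age (7 and 28 without it) and 37 and 49 between fractions at 4 and 8 weeks (29 and 42), while all genes gave 2569 and 2642 with age (2799 and 2561), 9158 and 9127 between fractions (7570 and 7679) and 2080 for the difference in age change (800). Depth limits Yap1, Wwtr1 and Lats2 in β-cells, at 17 to 66 counts per sample.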
